A study of Caenorhabditis elegans with 8 samples.

Results

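Loss of the heterochromatin anchor CEC-4 in larvae that carried mutant lamin was examined by setting the double mutant against lamin Y59C. The comparison took both libraries, a and b, of each of these genotypes. These were 4 of the 8 libraries of the study, and all genes above a minimum of counts were tested in them, 14355 of 20392. The study sequenced total RNA from Caenorhabditis elegans in the first larval stage (L1), in 4 genotypes with 2 libraries each. The lamin Y59C strain (GW653) carried an integrated transgene (ygIs) that joined the baf-1 promoter (baf-1p) to GFP-lmn-1 Y59C and held the marker unc-119(+), in animals with the unc-119(ed-3) allele. The double mutant (GW1468) carried the same transgene and background together with cec-4(ok3124) IV. The transgene, its unc-119(+) marker and the unc-119(ed-3) allele were thus present on both sides of the comparison. The same cec-4 allele without the transgene was in the cec-4 mutant (GW828), and the wild-type was N2 Bristol. All larvae were synchronized by hatching in M9 buffer, had fed on OP50 bacteria for a short time, and were sorted for animals without a green balancer. The transgene was driven by the promoter of baf-1 and encoded lamin fused to GFP, and its reads cannot be told apart from those of the endogenous lmn-1 in gene counts. The labels name no separate cultures for libraries a and b, so the p-values measure a spread that may be technical.

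CEC-4 is a chromodomain protein of the nuclear envelope that binds methylated lysine 9 of histone H3 and holds heterochromatin at the nuclear periphery of C. elegans cells. Lamin, encoded by the single gene lmn-1 in this species, forms the meshwork under the inner nuclear membrane. Y59C stands for a human lamin A mutation found in Emery-Dreifuss muscular dystrophy, a disease of skeletal and heart muscle. The L1 larva is a whole animal of intestine, epidermis, muscle, neurons and other tissues. In total RNA from whole larvae, fewer cells of a type and less RNA per cell cannot be told apart.

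Library totals lay between 30924676 and 32695286 counts in the 4 libraries compared and between 30997254 and 57069281 in the other 4. Levels are given as CPM, the counts after every library is brought to the same scaled total, always in the order a, b. Marker genes of intestine, epidermis, muscle, pharynx, neurons and germ line were present in all 8 libraries. Of the defining markers, end-1 (early endoderm), nhr-73 and the sperm genes msp-3, msp-19 and msp-31 were at 0 in all of them.

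The targeted gene itself was examined first. Transcripts of cec-4 (WBGene00017990) stood at 12.3 and 12.3 CPM in lamin Y59C and 4.35 and 4.61 CPM in the double mutant. The double mutant was lower in both libraries and the groups did not overlap. The change was -1.46 ± 0.11 (adjusted p = 0.000371) on the log2 scale ± standard error (SE), in edgeR's quasi-likelihood test with Benjamini-Hochberg adjustment over all 14355 genes. That left a level 2.75 times below lamin Y59C, and the counts do not show which part of the gene gave the remaining reads. Transcripts of lmn-1 were at 511 and 519 CPM in lamin Y59C and 488 and 523 CPM in the double mutant, and these groups overlapped (-0.02 ± 0.07, adjusted p = 0.914). The marker gene unc-119 had 0.05 ± 0.06 (adjusted p = 0.764) and baf-1, a chromatin and lamina-binding protein whose promoter drives the transgene, had 0.11 ± 0.06 (adjusted p = 0.448).

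Genes that fell with loss of CEC-4 in lamin Y59C larvae included 10 genes of digestion and defence, 7 cuticle collagen genes and the fatty acid desaturase gene fat-5. Genes that rose included 6 scarce cuticle collagen genes, the detoxification genes ugt-16, ugt-5 and cyp-35C1, and the asparagine synthetase gene asns-2. The glutathione S-transferase gene gst-28 fell, so called detoxification genes lay on both sides. A gene was called at an adjusted p under 0.05. The test called 97 of 14355 genes (0.676%), 25 of them higher (0.174%) and 72 lower (0.502%) in the double mutant. Before adjustment, p was under 0.05 for 855 higher and 1042 lower genes. DESeq2 called 85 higher and 146 lower, so that 63.2% of its calls were lower against 74.2% with edgeR, and it called 95 of the 97. The median change was 0.90 among the called genes that were higher and -0.60 among those that were lower, beside 0.0028 over all tested genes. A change of at least 2-fold was seen in 12 higher and 16 lower genes, and a change under 1.5-fold in 7 and 31. In none of the 97 did the libraries of lamin Y59C and the double mutant overlap. These genes were selected by a test on the same libraries, so this adds no support. The share over all tested genes was not counted, and the uncalled unc-119 and baf-1 did not overlap either. The number of calls depended on single libraries: without double mutant a or without double mutant b, 6 genes were called, without lamin Y59C a 8, and without lamin Y59C b 84, of which 52 were among the 97. Of the 97, 77 and 76 were called again when library a or b of wild-type was left out. More genes were called without either cec-4 mutant library than with all 8 libraries. Libraries of the cec-4 mutant and of wild-type enter this comparison only through the filter, the scaling and the shared estimate of the spread.

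**Figure D1:**
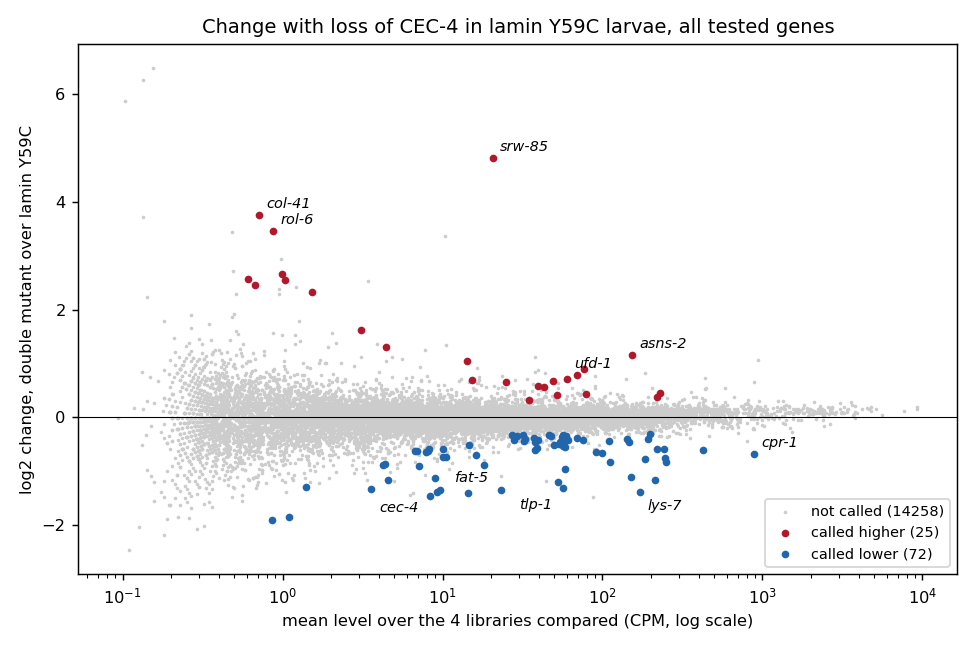
Each point is 1 of 14355 tested genes, with its mean level over the 4 libraries compared (CPM, log axis) and its log2 change in the double mutant over lamin Y59C; red and blue points are the 25 genes called higher and the 72 called lower. Of the genes called higher, 8 are under 5 CPM in both groups, among them col-41 and rol-6, and srw-85 stands alone at 4.82.

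Calls of 6 genes held whichever of the 8 libraries was left out: cec-4, srw-85, ufd-1, tlp-1, lsm-5 and lys-7. A zinc-finger transcription factor needed for patterning of the tail is the product of tlp-1, which stood at 81.1 and 79.9 CPM in lamin Y59C and 33.98 and 30.9 CPM in the double mutant. Both libraries of the double mutant were lower, and the change was -1.31 ± 0.07 (adjusted p = 1.4e-05). They lay close to wild-type (29.8 and 30.1 CPM) and to the cec-4 mutant (32.01 and 29.7 CPM), and the double mutant against wild-type gave 0.11 ± 0.07 (adjusted p = 0.407). Lamin Y59C against wild-type, which shares the lamin Y59C libraries with the comparison here, gave 1.43 ± 0.06 (adjusted p = 8.45e-06). Of 17 tested genes of the Hox and tail patterning list, tlp-1 was the 1 called, and the list's median was -0.09. In this list 13 genes lay below 0, and 6 lower and 0 higher ones had an unadjusted p under 0.05.

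The gene lsm-5 encodes an Sm-like protein of the rings that bind RNA in splicing and decay. It was at 78.5 and 76.4 CPM in lamin Y59C and 41.9 and 37.4 CPM in the double mutant, with no overlap and a change of -0.97 ± 0.07 (adjusted p = 0.000201). Wild-type libraries were at 28.4 and 28.3 CPM, so the double mutant stood between wild-type and lamin Y59C, and its difference from wild-type was 0.49 ± 0.07 (adjusted p = 0.00955). The latter call ended when library a of wild-type or of the double mutant was left out, with adjusted p up to 0.0817. The other 14 tested LSM and Sm genes, among them the ring partners lsm-3, lsm-6 and lsm-7, had values of -0.07 to 0.12 and 0 of them was called, also by DESeq2, with 0 at an unadjusted p under 0.05. The F-box gene fbxa-95 lies next to lsm-5 on chromosome V, 821 bases away in the WBcel235 annotation. Its libraries were at 5.83 and 5.52 CPM in lamin Y59C and 3.31 and 2.91 CPM in the double mutant, and it fell by 0.87 ± 0.14 (adjusted p = 0.0257). Without any 1 of the 4 libraries compared this call of fbxa-95 ended, with adjusted p up to 0.211.

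The lysozyme gene lys-7, whose product takes part in defence against bacteria, stood at 255 and 244 CPM in lamin Y59C and 86.8 and 105 CPM in the double mutant. The double mutant was 2.61-fold lower, the groups lay far apart, and the change was -1.38 ± 0.09 (adjusted p = 0.000201). Wild-type and cec-4 mutant libraries lay between them, at 175 and 187 and at 163 and 187 CPM. The double mutant was below wild-type as well (-0.92 ± 0.09, adjusted p = 0.0014).

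Transcripts of srw-85, a gene of the chemoreceptor class, were at 1.39 and 1.42 CPM in lamin Y59C and 39.3 and 40.3 CPM in the double mutant, a change of 4.82 ± 0.12 (adjusted p = 3.97e-08). The lamin Y59C libraries had 44 and 45 counts and the double mutant 1282 and 1258. It was the largest change among called genes. Of 338 tested genes of the chemoreceptor class and 20 of the srw family, srw-85 was the 1 called, and the family's median was 0.13. The members of this family are similar to each other, and the treatment of reads that match several of them is not given in the sources used here. The gene ufd-1 encodes a cofactor with which the ATPase CDC-48 takes up ubiquitin-tagged proteins. It was at 44.9 and 45.4 CPM in lamin Y59C and 70.2 and 78.3 CPM in the double mutant and rose by 0.72 ± 0.07 (adjusted p = 0.00155). The other 15 tested genes of CDC-48 and its cofactors had changes of -0.08 to 0.30, with 0 called by edgeR and by DESeq2, and 0 at an unadjusted p under 0.05. Its partner genes npl-4.1 and npl-4.2 were under 3 CPM.

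**Figure D2:**
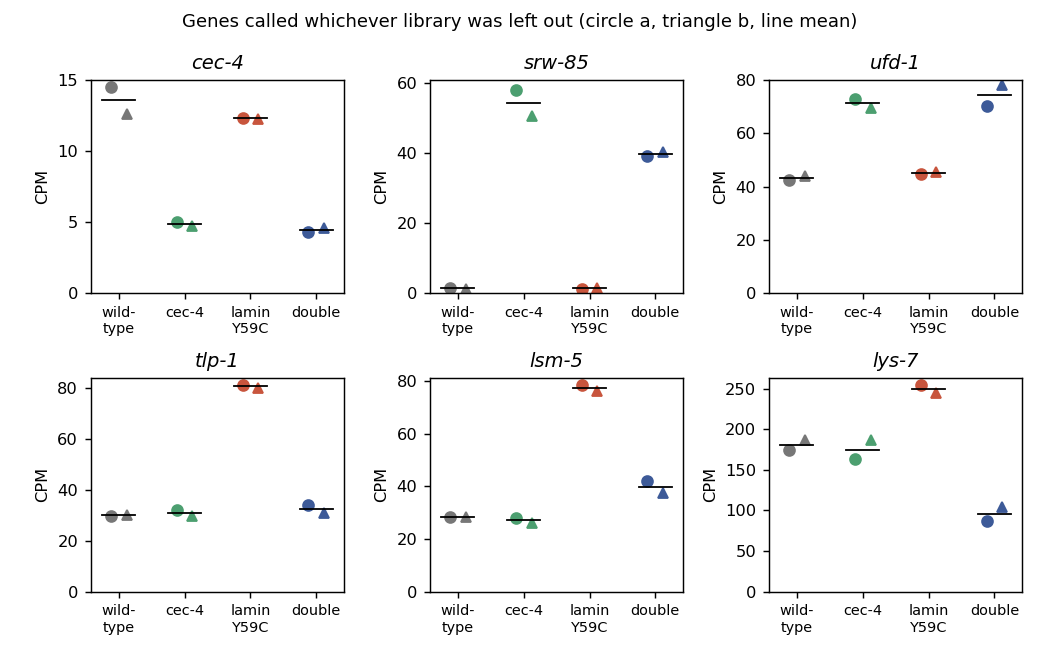
Level in CPM of the 6 genes that were called whichever library was left out, in each of the 8 libraries (circle for a, triangle for b, line for the mean of the 2 libraries). In tlp-1 and lsm-5 the lamin Y59C libraries stand above the other 6, in lys-7 the double mutant stands lowest, and in cec-4, srw-85 and ufd-1 the libraries separate by the cec-4 allele.

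The called members of the lists of digestion and defence all fell, and most members of these lists were not called. Over all 14355 tested genes 72 were called lower (0.502%) and 25 higher (0.174%), so most calls of any kind were lower. Genes outside the lists are not covered. F55G11.2 and F55G11.4, called in opposite directions and given below, were in none of them. Of 11 tested lysozymes 2 were called lower and 0 higher, of 113 C-type lectins 3 and 0, of 44 saposins and lysosomal proteases 3 and 0, and of 30 antimicrobial peptide-like genes 2 and 0. The medians of these lists were -0.14, -0.08, -0.03 and -0.24. DESeq2 called 3, 5, 6 and 2 of them lower, and 1 saposin or protease higher. An unadjusted p under 0.05 was reached by 6, 25, 10 and 12 lower members and by 1, 8, 6 and 0 higher ones. Among the 11 lysozymes 3 lay above 0, up to 0.79. Another lysozyme gene, lys-4, was at 56.2 and 60.3 CPM in lamin Y59C and 37.9 and 44 CPM in the double mutant (-0.51 ± 0.08, adjusted p = 0.0255). Beside these, lys-10 was scarce and lower without passing the test (-1.13, adjusted p = 0.275), and the abundant lys-1 and lys-8 had -0.08 (adjusted p = 0.664) and -0.16 (adjusted p = 0.270). The summed level of the lysozyme list was 1583 and 1577 CPM in lamin Y59C and 1233 and 1325 CPM in the double mutant. That of the saposins and lysosomal proteases overlapped, at 21669 and 21236 against 20294 and 21290 CPM. Of 16 tested pathogen response, CUB and DOD genes edgeR called 0 and DESeq2 1 (lower), 3 higher and 3 lower ones had an unadjusted p under 0.05, and the median was 0.0004.

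The C-type lectin-domain gene clec-42 stood at 348 and 293 CPM in lamin Y59C and 188 and 170.0 CPM in the double mutant. The double mutant was lower in both libraries, with a change of -0.84 ± 0.11 (adjusted p = 0.0122). In clec-17 the libraries were at 135 and 107 against 79.4 and 73.6 CPM (-0.66 ± 0.12, adjusted p = 0.0462). The gene clec-7 was less abundant, at 17.2 and 17.2 against 11.5 and 12.5 CPM (-0.52 ± 0.08, adjusted p = 0.0255). The most abundant of the called genes was cpr-1, a gut cysteine protease of the cathepsin B kind, at 1151 and 1033 CPM in lamin Y59C and 660.4 and 703 CPM in the double mutant. Both double mutant libraries were lower, and the change was -0.68 ± 0.09 (adjusted p = 0.0122). The saposin-like gene spp-18 had 155 and 130.2 CPM in lamin Y59C and 84.5 and 76.7 CPM in the double mutant, again with no overlap (-0.82 ± 0.09, adjusted p = 0.00639). An aspartyl protease gene, asp-16, was scarce: 61 and 48 counts in lamin Y59C and 12 and 18 in the double mutant (-1.86 ± 0.30, adjusted p = 0.0255). Both small secreted peptide genes of the group were at lower levels, fipr-21 (-0.43 ± 0.06, adjusted p = 0.0203) and abf-5 (-0.44 ± 0.08, adjusted p = 0.0335).

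Except for lys-7, each of these calls ended when double mutant a or double mutant b was left out, and except for lys-7 and spp-18 also without lamin Y59C a. Those of lys-4, clec-7, fipr-21 and abf-5 ended without lamin Y59C b too, and that of abf-5 without either library of wild-type. For these 9 genes the highest adjusted p under such omissions was 0.0835 to 0.326. Without the transgene, in the cec-4 mutant over wild-type, the same 9 genes had log2 changes of -0.05 (abf-5) to 0.43 (asp-16) and 0 was called. The summed level of 12 intestine marker genes was 11927 and 11545 CPM in lamin Y59C and 11369 and 11955 CPM in the double mutant, so the marker sums overlapped. Of these markers 0 was called by edgeR; 1 was higher and 3 were lower at an unadjusted p under 0.05, and DESeq2 called 1 higher. The gut esterase gene ges-1 had -0.27 ± 0.07 (adjusted p = 0.136) and the metallothionein gene mtl-2 had 0.55 ± 0.11 (adjusted p = 0.0538).

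Cuticle collagens moved in both directions. These proteins build the exoskeleton, and their genes are expressed in waves over each moulting cycle. Of 101 tested, 6 were called higher and 7 lower, 12.9% of the list, and the list's median was -0.16. DESeq2 called 10 higher and 10 lower. The 6 that rose were col-41, rol-6, dpy-5, sqt-2, dpy-4 and sqt-3, of which rol-6, dpy-5, sqt-2, dpy-4 and sqt-3 are known from mutants with altered body shape. All 6 were scarce: 1 to 22 counts in a lamin Y59C library (0.0315 to 0.694 CPM) and 33 to 84 in a double mutant library (1.06 to 2.69 CPM).

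The gene col-41 had 1 and 5 counts in the lamin Y59C libraries and 48 and 37 in the double mutant, a change of 3.76 ± 0.46 (adjusted p = 0.0122). For rol-6 the counts were 1 and 8 against 51 and 51 (3.46 ± 0.50, adjusted p = 0.022). For sqt-3 they were 10 and 22 against 79 and 84 (2.33 ± 0.34, adjusted p = 0.022). In all 3 the groups lay apart, and lamin Y59C a was below lamin Y59C b. The changes of dpy-5, sqt-2 and dpy-4 were 2.67, 2.56 and 2.46. Wild-type libraries were at 1.62 to 2.86 CPM and cec-4 mutant libraries at 1.70 to 4.58 CPM in these 6 genes. Against wild-type, lamin Y59C had -4.27 ± 0.42 (adjusted p = 0.00326) in col-41 and -3.81 ± 0.47 (adjusted p = 0.0107) in rol-6, and the double mutant had -0.51 ± 0.25 (adjusted p = 0.326) and -0.35 ± 0.29 (adjusted p = 0.585). These comparisons share libraries with the one described here. The call of rol-6 against wild-type ended when library a of wild-type or of lamin Y59C was left out, with adjusted p up to 0.0726.

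The 7 collagens that fell were abundant, apart from col-176. The largest level was that of col-42, at 546 and 479.8 CPM in lamin Y59C and 318 and 358 CPM in the double mutant (-0.60 ± 0.09, adjusted p = 0.0228). In col-98 the libraries were at 334 and 280.3 against 166 and 197 CPM (-0.75 ± 0.12, adjusted p = 0.0255), and in col-103 at 295 and 231 against 168 and 180.0 CPM (-0.60 ± 0.11, adjusted p = 0.0489). The double mutant was below lamin Y59C in every library of these genes. The fold was larger for the less abundant col-176, at 13.8 and 12.8 against 4.47 and 5.66 CPM (-1.39 ± 0.20, adjusted p = 0.022). The others were col-80 (-0.65 ± 0.08, adjusted p = 0.0122), col-147 (-0.45 ± 0.08, adjusted p = 0.0362) and col-10 (-0.34 ± 0.05, adjusted p = 0.0255). Summed over the 7, the level was 1511 and 1292 CPM in lamin Y59C and 871 and 960 CPM in the double mutant; in wild-type it was 1198 and 1081 CPM.

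No call of the 13 collagens held without lamin Y59C a, without double mutant a or without double mutant b, and those of col-10, col-147 and sqt-2 ended without lamin Y59C b as well. Those of sqt-2, dpy-4 and col-103 ended also without either library of wild-type. The highest adjusted p of each collagen was 0.105 to 0.326. Collagen genes are near-identical in part, so counts may have been shared between them. The summed level of 13 tested hypodermis and seam markers was lower in the double mutant, at 342 and 352 CPM in lamin Y59C and 305 and 301 CPM in the double mutant. Of these 13, the collagens rol-6 and sqt-3 were called higher and 0 lower, and at an unadjusted p under 0.05, 3 were higher and 5 lower. The part of this shift in the collagen results was not tested.

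**Figure D3:**
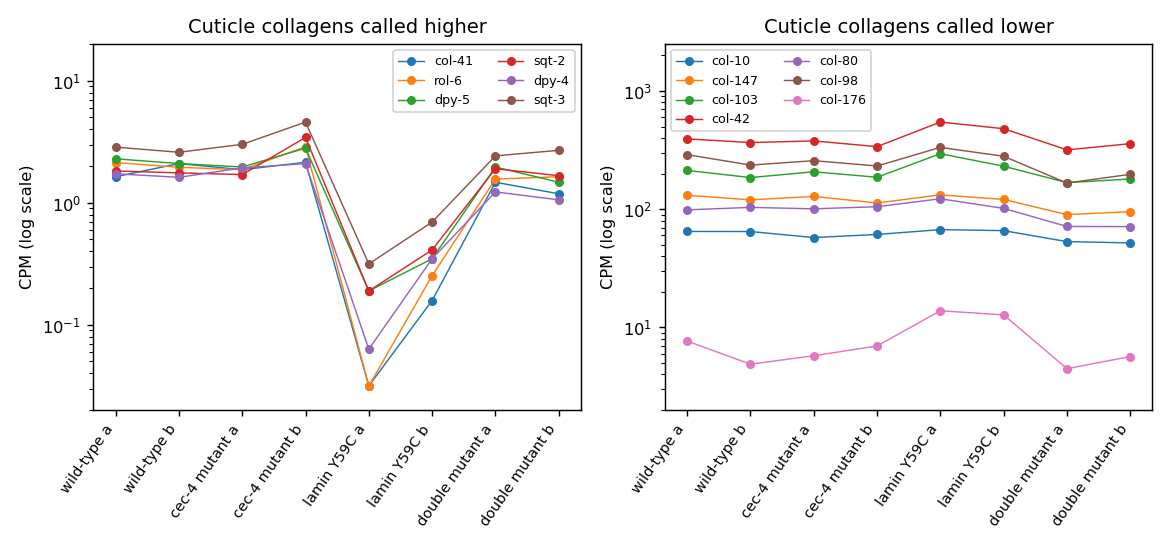
Levels (CPM, log axis) of the 6 cuticle collagens called higher and the 7 called lower, in each of the 8 libraries, with 1 line per gene as a guide to the eye. The 6 scarce genes drop in both lamin Y59C libraries and stand near the wild-type level in the double mutant, and in each of the 7 others both double mutant libraries lie below both lamin Y59C libraries.

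The furrow collagens, which mark the annular furrows of the cuticle, showed a spread between the double mutant libraries. Of 6 tested (dpy-2, dpy-3, dpy-7, dpy-8, dpy-9 and dpy-10), 0 was called by edgeR; 4 were higher at an unadjusted p under 0.05 and DESeq2 called 1 higher, and their median was 0.97. In dpy-7 the libraries were at 0.126 and 0.505 CPM in lamin Y59C and at 0.552 and 2.59 CPM in the double mutant (2.29, adjusted p = 0.222). Their summed level was 5.2 and 7.10 CPM in lamin Y59C and 6.74 and 17.2 CPM in the double mutant, so double mutant b stood apart from a. Other genes of the body surface were called singly. Among 35 tested hedgehog-related genes, the ground-like genes grl-21 and grl-4 were called lower. The former was at 4.19 and 6.0 against 2.21 and 1.82 CPM (-1.33 ± 0.22, adjusted p = 0.0293) and the latter at 63.6 and 66.1 against 47.8 and 51.5 CPM (-0.38 ± 0.07, adjusted p = 0.0362). The patched-related gene ptr-24 was the 1 called of 91 moulting and apical matrix genes, and was higher, at 43.6 and 45.97 against 59.7 and 60 CPM (0.42 ± 0.06, adjusted p = 0.0228). Lower calls included pax-3, a paired-box transcription factor gene of the epidermis, at 9.27 and 10.4 against 6.43 and 6.62 CPM (-0.59 ± 0.11, adjusted p = 0.047). Also called lower were the tyrosinase-family genes tyr-4 (-0.51) and tyr-6 (-0.34) and the peroxidase gene skpo-3 (-0.38), from families whose tested members were not counted. These 7 calls ended without any 1 of lamin Y59C a and both double mutant libraries, and, except for ptr-24 and tyr-4, without lamin Y59C b. Those of pax-3, tyr-4 and tyr-6 ended also without either library of wild-type, with adjusted p up to 0.332.

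Called genes of detoxification and transport lay on both sides. UDP-glucuronosyltransferases attach a sugar to foreign and endogenous compounds; of 64 tested, 2 were called higher and 0 lower, with a median of 0.15. DESeq2 called 7 higher and 0 lower, and 19 higher and 4 lower genes had an unadjusted p under 0.05. The gene ugt-16 stood at 45.95 and 56.2 CPM in lamin Y59C and 83.5 and 92.9 CPM in the double mutant (0.79 ± 0.10, adjusted p = 0.0122). For ugt-5 the values were 28.96 and 34.7 against 47.9 and 47.2 CPM (0.58 ± 0.08, adjusted p = 0.022). The groups lay apart in both. The summed level of the list was 1543 and 1727 CPM in lamin Y59C and 1876 and 2050 CPM in the double mutant. Of 69 cytochrome P450 genes, cyp-35C1 of the xenobiotic-induced CYP35 family was the 1 called, at 44.8 and 61.9 against 92.98 and 106 CPM (0.90 ± 0.16, adjusted p = 0.0335), while the list's median was -0.03 and 39 of the 69 lay below 0.

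The carboxylesterase genes cest-1.2 and cest-2.1 were called higher, and they are next to each other on chromosome V in the WBcel235 annotation. Tested members of this family were not counted, and the esterase gene ges-1, given above, had -0.27 without passing the test. Of the cest genes, cest-1.2 is given first. It was at 7.85 and 10.8 CPM in lamin Y59C and 17.9 and 20.7 CPM in the double mutant (1.05 ± 0.16, adjusted p = 0.0255). For cest-2.1 the values were 2.30 and 2.78 against 6.34 and 6.24 CPM (1.31 ± 0.17, adjusted p = 0.0147). The P-glycoprotein gene pgp-2, an ABC transporter of intestinal granules, was at 66.3 and 69.01 against 91.2 and 91.3 CPM (0.43 ± 0.05, adjusted p = 0.0122), and the solute carrier gene slc-36.5 at 10.9 and 12.5 against 17.4 and 20.2 CPM (0.68 ± 0.11, adjusted p = 0.0252). In contrast, 3 genes of glutathione or sulfate chemistry fell. They were the glutathione S-transferase gene gst-28 (-0.42 ± 0.07, adjusted p = 0.0255), 1 called of 49 in a list with a median of -0.11 and 34 members below 0, the glutathione peroxidase gene gpx-3 (-0.61 ± 0.11, adjusted p = 0.0348) and the sulfatase gene sul-3 (-0.65 ± 0.10, adjusted p = 0.0255). In lamin Y59C, library b was above a in ugt-16, ugt-5, cyp-35C1, cest-1.2 and cest-2.1, and these 5 calls ended without any 1 of lamin Y59C a and both double mutant libraries (adjusted p up to 0.236, for cyp-35C1). The calls of the other 5 genes of this group ended without the same libraries, and those of gst-28 and sul-3 without lamin Y59C b, with adjusted p up to 0.224.

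Among genes of metabolism, the asparagine synthetase gene asns-2 stood at 81.1 and 109.6 CPM in lamin Y59C and 205 and 218 CPM in the double mutant. The double mutant was 2.22-fold higher (1.15 ± 0.17, adjusted p = 0.0233), and wild-type libraries were at 139.5 and 92.98 CPM. It was the 1 called of 24 genes of the integrated stress response and amino acid synthesis, a list with a median of 0.05. DESeq2 called 2 of the 24 higher. An unadjusted p under 0.05 was reached by 8 higher and 1 lower, beside 855 and 1042 of all 14355 genes. The list's summed level was 3810 and 4203 CPM in lamin Y59C and 4359 and 4685 CPM in the double mutant. Also higher were alh-13, an aldehyde dehydrogenase family gene (0.56 ± 0.09, adjusted p = 0.0293), paic-1, of purine synthesis (0.33 ± 0.06, adjusted p = 0.0488), and the acyl-CoA synthetase family gene acs-19, at 192 and 196 against 259.6 and 268 CPM (0.44 ± 0.07, adjusted p = 0.0228). Lower was tatn-1, which encodes tyrosine aminotransferase, the first enzyme of tyrosine breakdown. Its libraries were at 252 and 217 CPM in lamin Y59C and 139.5 and 132 CPM in the double mutant, with no overlap (-0.79 ± 0.09, adjusted p = 0.00629). The 6 tested genes of tyrosine and phenylalanine breakdown had a median of -0.17, and tatn-1 was the 1 called. All 6 lay below 0, 3 of them at an unadjusted p under 0.05.

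The palmitoyl-CoA desaturase gene fat-5 fell from 37.4 and 29.1 CPM in lamin Y59C to 13.9 and 12.2 CPM in the double mutant (-1.35 ± 0.20, adjusted p = 0.0228). Wild-type libraries, at 15.6 and 13.1 CPM, were near the double mutant. The other 14 tested desaturases and elongases included 0 called by edgeR, and the list's median was 0.10. The fatty acid-binding protein gene lbp-7 was at 69.1 and 64.7 against 48.02 and 44.2 CPM (-0.54 ± 0.07, adjusted p = 0.0172). All 7 calls of these metabolic genes ended without any 1 of lamin Y59C a and both double mutant libraries, those of acs-19 and paic-1 also without lamin Y59C b and that of paic-1 without either library of wild-type, with highest adjusted p of 0.0835 to 0.214.

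Of 20 tested heat shock protein genes, the small heat shock genes hsp-12.3 and hsp-17 were called lower and 0 higher, with a median of -0.04. Unadjusted p was under 0.05 for 7 lower and 0 higher members of this list. The scarce hsp-12.3 was at 1.89 and 2.11 against 0.705 and 0.928 CPM (-1.29 ± 0.22, adjusted p = 0.0326). The more abundant hsp-17 was at 218 and 222 against 167 and 168 CPM (-0.40 ± 0.06, adjusted p = 0.0244), and wild-type libraries were at 162 and 169 CPM. Of 102 neuropeptide genes 1 was called in each direction, nlp-49 (0.37 ± 0.06, adjusted p = 0.0265) and nlp-24 (-0.56 ± 0.09, adjusted p = 0.0271). Before adjustment, 5 higher and 21 lower neuropeptide genes had p under 0.05, and the median was -0.05. Other genes of neurons that fell were cng-1, of the cyclic nucleotide-gated channel family (-0.63 ± 0.12, adjusted p = 0.0498), and klp-6, a kinesin of ciliated neurons (-0.36 ± 0.07, adjusted p = 0.0489). The annotation places klp-6 and the called gene C45G9.6 (-0.34) over the same 125 bases, so their counts may share reads. Summed over 15 neuron markers the level was 2676 and 2699 CPM in lamin Y59C and 2722 and 2803 CPM in the double mutant. Galectin genes lec-7 (-0.64) and lec-9 (-0.45) were called lower, in a family whose tested members were not counted. None of these calls held without lamin Y59C a or without a double mutant library, and lec-9 alone was called again without lamin Y59C b (adjusted p up to 0.347). Those of hsp-12.3, cng-1 and lec-7 ended also without either library of wild-type, and that of klp-6 without wild-type b.

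**Figure D4:**
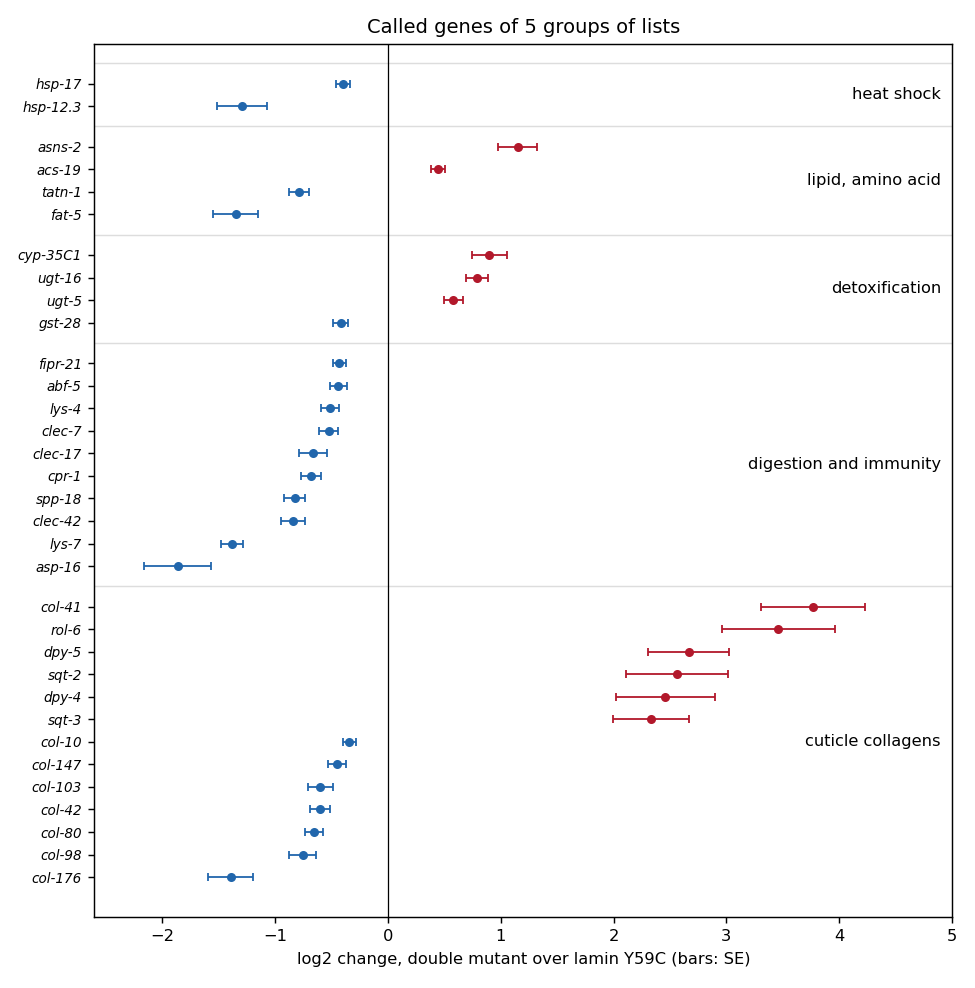
Log2 change in the double mutant over lamin Y59C with its SE for called genes in 5 groups of lists, red for higher and blue for lower. All 10 called genes of digestion and immunity lie below 0, those of detoxification lie above it except gst-28, and the cuticle collagens lie on both sides, from -1.39 to 3.76.

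Several of the largest falls were in genes without a genetic name. Y39B6A.1 was at 331 and 263 CPM in lamin Y59C and 132 and 131 CPM in the double mutant (-1.17 ± 0.11, adjusted p = 0.0021), and wild-type and cec-4 mutant libraries were at 322 and 269 and at 298 and 276 CPM. Its call held without lamin Y59C a and ended without either double mutant library (adjusted p up to 0.0683). F09C8.1 was at 86.6 and 61.02 against 34.8 and 29.5 CPM (-1.2 ± 0.17, adjusted p = 0.022). In F55G11.4 the libraries were at 184 and 226 against 94.2 and 95.5 CPM (-1.11 ± 0.17, adjusted p = 0.0233), while its neighbour F55G11.2 on chromosome IV was called in the opposite direction, at 33.9 and 42.1 against 56.8 and 63.9 CPM (0.67 ± 0.11, adjusted p = 0.0255). F14F8.8 was at 24.7 and 17.3 against 8.73 and 7.07 CPM (-1.41 ± 0.21, adjusted p = 0.0239) and ZK512.7 at 16.7 and 10.9 against 6.31 and 4.51 CPM (-1.34 ± 0.23, adjusted p = 0.0325). The short gene nspe-5, of a nematode-specific peptide family, had 44 and 42 counts against 13 and 10 (-1.90 ± 0.26, adjusted p = 0.0179). These calls ended without any 1 of lamin Y59C a and both double mutant libraries, apart from the exception given for Y39B6A.1, and that of F55G11.4 also without lamin Y59C b, with adjusted p up to 0.255.

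R03G8.1 had 0 counts in all 4 libraries without the transgene, which allows up to 3 counts in each. It had 48 and 48 counts in lamin Y59C and 184 and 113 in the double mutant, and was called higher in the latter (1.61 ± 0.26, adjusted p = 0.0391). The libraries of the double mutant differed from each other by more than those of lamin Y59C, and the call ended without any 1 of the 4 libraries compared (adjusted p up to 0.273). Y53C12B.7 was called lower, at 5.17 and 5.81 against 2.67 and 3.23 CPM (-0.90 ± 0.14, adjusted p = 0.0255). Wild-type libraries of Y53C12B.7 were at 11.8 and 11.4 CPM and the cec-4 mutant at 9.91 and 8.87 CPM, so the double mutant stood lowest of the 4 genotypes. Its call ended without any 1 of the 4 libraries compared (adjusted p up to 0.169).

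Genes of the nuclear envelope and of heterochromatin showed few differences apart from cec-4. Of 32 tested genes of H3K9 methylation and its readers, cec-4 was the 1 called, and the median was 0.012. The methyltransferase genes met-2 and set-25 had -0.02 (adjusted p = 0.903) and -0.35 (adjusted p = 0.228), and the HP1 genes hpl-1 and hpl-2 had 0.10 (adjusted p = 0.759) and -0.07 (adjusted p = 0.677). Of 20 lamina and LINC complex genes, 0 was called by edgeR or DESeq2, and the median was -0.03. Before adjustment p was under 0.05 for 1 of them, higher: emr-1, which encodes the inner membrane protein emerin (0.20 ± 0.06, adjusted p = 0.167). Of 27 nuclear pore genes 0 was called by either tool, 1 was higher at an unadjusted p under 0.05, and the median was 0.07.

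Muscle genes were examined because the mutation stands for a muscle disease. Of 67 genes of the body wall muscle sarcomere and its attachment, edgeR called 0 and DESeq2 called 1 (lower). Before adjustment, 1 higher and 9 lower genes had p under 0.05, and the median was -0.03. The troponin I gene unc-27 was at 368 and 356 against 296 and 318 CPM (-0.24 ± 0.06, adjusted p = 0.12), and the troponin T gene tnt-2 had -0.21 ± 0.06 (adjusted p = 0.186). Of 23 acetylcholinesterase and cholinergic synapse genes edgeR and DESeq2 called 0, with 2 higher at an unadjusted p under 0.05. The summed level of 9 body wall muscle markers was 11276 and 10907 CPM in lamin Y59C and 10410 and 11106 CPM in the double mutant, and these overlapped.

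Housekeeping lists held no called gene. Cytosolic ribosomal protein genes (80 tested, median 0.10), proteasome subunits (34, median 0.05), nuclear subunits of oxidative phosphorylation (40, median 0.06) and genes of glycolysis and the citric acid cycle (43, median 0.07) had 0 calls by edgeR and by DESeq2. At an unadjusted p under 0.05 they had 6, 2, 2 and 10 higher and 0 lower. In the same order 79, 32, 33 and 33 members lay above 0, beside 7288 of all 14355 tested genes. Scaling by library totals alone moved the median of all tested genes from 0.0028 to -0.05, a shift about as large as some of these medians. A change of scaling moves listed and other genes nearly alike, so it bears little on a list's distance from that median.

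To ask what CEC-4 loss did without the transgene, the cec-4 mutant was set against wild-type in the other 4 libraries. That comparison called 3 of 14355 genes (0.0209%), DESeq2 called 8, and an unadjusted p under 0.05 was reached by 366 higher and 334 lower genes. The 3 were cec-4, srw-85 and ufd-1, all of them also called in lamin Y59C larvae. There cec-4 had -1.47 ± 0.11 (adjusted p = 0.00061), srw-85 had 5.31 ± 0.12 (adjusted p = 8.55e-09) and ufd-1 had 0.71 ± 0.06 (adjusted p = 0.00296). The sizes of cec-4 and ufd-1 were close to those with the transgene, and the interaction described next gave 0.0094 ± 0.16 (adjusted p = 0.99) for cec-4 and 0.0035 ± 0.09 (adjusted p = 0.994) for ufd-1. The call of ufd-1 without the transgene ended without wild-type a (adjusted p = 0.0608). The other 94 genes called in lamin Y59C larvae had changes of -0.78 to 0.55 without the transgene, 45 above 0 and 48 below, with a median of -0.013. Of these 94, 0 was called, and their smallest adjusted p was 0.897. Among them cpr-1 had 0.03, asns-2 had -0.18, col-42 had -0.08 and fat-5 had 0.21. Without the transgene, 14 of the 97 genes called in lamin Y59C larvae had an unadjusted p under 0.05. These 14 included cec-4, srw-85 and ufd-1. Others of the 14 moved the same way as with the transgene, as nspe-5 (-0.78), or the opposite way, as clec-42 (0.31). So a smaller response of some of the 94 without the transgene is not excluded. Across all tested genes, Pearson's r between the changes with and without the transgene was 0.021, as a description over genes that are not independent replicates.

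The difference between both effects was tested as an interaction, the change with the transgene minus the change without it. It called 5 genes (0.0348%), all below 0. DESeq2 called 75, and an unadjusted p under 0.05 was reached by 651 genes above 0 and 792 below. They were tlp-1 (-1.35 ± 0.09, adjusted p = 0.000643), lys-7 (-1.33 ± 0.13, adjusted p = 0.00983), lsm-5 (-0.90 ± 0.10, adjusted p = 0.0161), clec-42 (-1.15 ± 0.15, adjusted p = 0.0476) and the claudin-like gene clc-11 (-1.11 ± 0.14, adjusted p = 0.0476). Without the transgene tlp-1, lys-7 and lsm-5 had 0.04, -0.05 and -0.07. The levels of clc-11 were 10.01 and 11.2 CPM (wild-type), 16.6 and 16.4 CPM (cec-4 mutant), 14.5 and 12.6 CPM (lamin Y59C) and 9.50 and 9.95 CPM (double mutant). Its values moved in opposite directions with CEC-4 loss, 0.63 ± 0.10 (adjusted p = 0.212) without the transgene and -0.48 ± 0.10 (adjusted p = 0.0773) with it, and neither passed on its own. Of the 97 genes, the interaction thus called tlp-1, lys-7, lsm-5 and clec-42 and did not call the other 93, while 92 of the 97 had an unadjusted p under 0.05. The interaction shares the 4 libraries by which the 97 were called, so their selection favoured a small unadjusted p in it. The count of 92 is therefore no separate evidence. Among all 14355 tested genes the counts were the 651 and 792 given above. With the library letter as a replicate block it called 4 genes, 3 of them among the 5. Its call of tlp-1 held whichever library was left out. That of lys-7 ended when library a of wild-type or of lamin Y59C was left out (adjusted p up to 0.0699). That of lsm-5 ended without lamin Y59C a, double mutant b or a library of wild-type (up to 0.131). That of clec-42 was kept only without cec-4 mutant a or lamin Y59C b, and that of clc-11 only without lamin Y59C b (up to 0.3 and 0.232). The interaction called 2 genes without wild-type a, 1 without lamin Y59C a, 10 without cec-4 mutant a and 35 without lamin Y59C b.

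**Figure D5:**
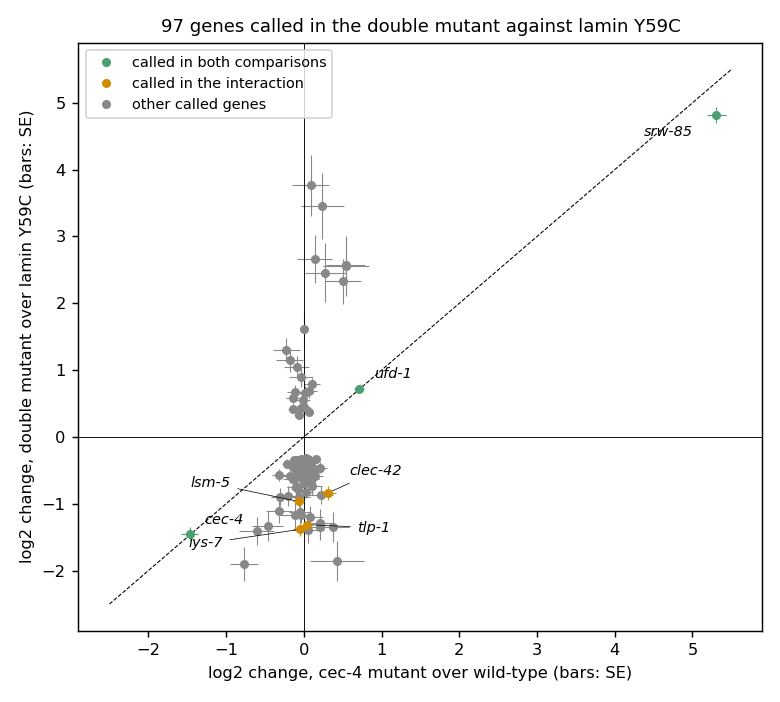
Log2 change with CEC-4 loss for the 97 genes called in the double mutant against lamin Y59C, with the transgene (vertical axis) and without it (horizontal axis, cec-4 mutant over wild-type); bars are SE and the dashed line marks equal changes. The 3 genes called in both, cec-4, srw-85 and ufd-1, are in green, the other 94 lie between -0.78 and 0.55 on the horizontal axis, and orange points are the 4 of them called in the interaction.

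The called genes were spread over all 6 chromosomes. Chromosome V held 33 of 3046 tested genes (1.08%), IV 18 of 2233 (0.806%), X 16 of 2127 (0.752%), II 15 of 2333 (0.643%), III 9 of 2161 (0.416%) and I 6 of 2155 (0.278%). Chromosome arms carry most of the H3K9-methylated chromatin that CEC-4 binds. With each chromosome of the WBcel235 annotation divided into 3 parts of equal length, the outer parts held 53 called of 8202 genes (0.646%) and the middle parts 44 of 5853 (0.752%), near the 0.676% over all genes. The median change was -0.0063 in the outer parts and 0.014 in the middle. Called genes lay next to each other on the map in a few places: cest-1.2 with cest-2.1, lsm-5 with fbxa-95 and the overlapping klp-6 with C45G9.6 moved the same way, while pgp-2 with tyr-4, F55G11.2 with F55G11.4, and alh-13 with abf-5 moved in opposite directions.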

How the data were processed

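Total RNA of L1 larvae was read as single-end reads from a stranded library kit, per the labels' protocols. The deposited table held whole-number counts per gene and library, which the authors made by aligning reads with Bowtie to ce10, per the submitters' processing notes, which also name edgeR 3.24.0. Which tool and annotation gave the counts, and whether strand was used, is not given in the sources used here. Genes that overlap, run antisense to another or have a near copy are therefore uncertain. A deposited normalized table was not used. WormBase gene IDs gave symbols for 19182 genes. Chromosomes and neighbours came from WBcel235, matched by ID for 19870 genes, with no coordinates converted.

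The counts were tested here with edgeR 4.0.16 in R 4.3.3. The filterByExpr step removed 6037 genes with 0.0278% of counts, libraries were scaled by TMM, and 1 quasi-likelihood fit (two-sided F-test) took all 8 libraries with 1 mean per genotype, since 2 libraries a group leave few degrees of freedom (4 residual, 6.03 prior). P-values were adjusted by Benjamini-Hochberg over 14355 genes and called under 0.05. The SE is the size of the log2 change divided by the square root of F. CPM are counts after every library is brought to the same TMM-scaled total. Comparisons were the double mutant against lamin Y59C, the cec-4 mutant against wild-type and their difference (interaction); the wild-type values of lamin Y59C and the double mutant stand beside them. Alternatives were other scalings and filters, DESeq2 1.42.0, the library letter as a block, the 4 libraries alone and each library left out.

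Genes and gene lists were chosen with earlier results of these data known. The rule for genes named with values per library took the genotype genes, the 15 largest rises and 20 largest falls of at least 5 CPM without overlap, genes called whichever library was left out, and up to 4 called members of a list. Where a list had no call, up to 2 members were named as values, and others given in the text were chosen after their values were seen. Of the genes the rule took, some are only counted. No sequences were analysed here.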

Additional observations from a re-analysis of the deposited data

Results flagged for a closer look

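In 5 genes the effect of CEC-4 loss differed between larvae with the lamin Y59C transgene and larvae without it, by edgeR's test of the interaction. The differences, as the log2 change with the transgene minus the change without it, were -1.35 for tlp-1, -1.33 for lys-7, -0.90 for lsm-5, -1.15 for clec-42 and -1.11 for clc-11. In tlp-1, lys-7 and lsm-5 the change without the transgene was between -0.07 and 0.04, so nearly the whole difference lay in the transgene strains. In clec-42 and clc-11 the cec-4 mutant libraries were above the wild-type ones, with changes of 0.31 and 0.63 that did not pass the test, and the double mutant libraries were below those of lamin Y59C. The adjusted p of clec-42 and clc-11 was 0.0476, close to the threshold. The call of tlp-1 held whichever library was left out, and those of lys-7, lsm-5, clec-42 and clc-11 did not. Only 2 groups of 2 libraries stand on each side of the test.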

How the results depend on the processing

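The 97 calls of the double mutant against lamin Y59C were all called again with RLE scaling, 94 of them with library totals alone and 81 with a minimum of 5 CPM in 2 libraries. The calls numbered 182 without a filter on low counts (62 higher, 120 lower), 231 with DESeq2 (95 shared) and 156 in a fit of the 4 libraries alone (46 higher, 110 lower; 89 shared). Leaving out 1 library gave 6 to 166 calls: 6 without either double mutant library, 8 and 84 with a or b of lamin Y59C left out (8 and 52 shared), 92 and 93 without a wild-type library, 157 without cec-4 mutant a and 166 without cec-4 mutant b. The cause was not tested, and an arm left with 1 library is assumed to vary like the others. No called gene changed sign under these alternatives; of the genes named, lmn-1 alone did, at 0.024 without double mutant a.

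The cec-4 mutant against wild-type gave 3 calls, 8 with DESeq2 and 3 to 9 with a library left out (9 without wild-type b). The interaction gave 5 calls, 34 without the filter, 3 with the minimum of 5 CPM, 75 with DESeq2 and 1 to 35 with a library left out (2 without wild-type a, 10 without cec-4 mutant a, 3 without cec-4 mutant b, 1 and 35 with a or b of lamin Y59C left out, 3 and 2 with a or b of the double mutant left out).

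With the library letter as a replicate block, the double mutant against lamin Y59C gave 28 calls (11 higher, 17 lower; 27 shared with the 97). Libraries of the same letter share only that letter by the labels: deviations from the group means correlated at 0.195 between lamin Y59C and the double mutant and at -0.221 to 0.0533 between the other pairs of groups.

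With 2 libraries a group, a gene's call rests on the spread shared across genes, and for scarce genes such as the 6 collagens on 1 to 22 counts in a lamin Y59C library.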
